A study of Caenorhabditis elegans with 3 samples.

Results

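Of the 4530 reproducible ELT-3 peaks of C. elegans L1 larvae, 1180 lay close to the start of protein-coding transcripts at promoters that face one way. They were chosen from that list by position alone. A peak was included when its summit, the position of highest signal, lay from 1000 bp upstream to 200 bp downstream of protein-coding transcript starts on one strand only, and from 300 bp upstream to 200 bp downstream of at least one of those starts. Within the list, neither the signal of a peak nor its DNA sequence was used in the choice. The list itself had been thresholded on reproducibility by the authors, and its lowest signal was 35.2. The 1180 start-proximal peaks made up 26.05% of the list (95% exact interval 24.8 to 27.4%). They are set beside 762 peaks that lay farther upstream at one-strand promoters, 645 peaks at divergent promoters, where starts on both strands lay in reach of the summit, and 1943 peaks outside promoters.

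Larvae of the first stage (L1), whole and of pooled sex, were sonicated, and DNA bound by ELT-3 was recovered by chromatin immunoprecipitation (ChIP) and sequenced. Every animal came from strain OP75, which carries the mutation unc-119(ed3) III and the transgene wgIs75, a stable construct that encodes ELT-3 fused at its C-terminus to GFP and FLAG. All 3 libraries formed 1 group of 2 biological replicates, with 2 technical libraries for replicate 1 joined in 1 alignment and 1 library for replicate 2. No untagged strain, other stage or control library was analysed here, larvae were not sorted by tissue, and the depth of each library is unknown because the lists give no read numbers.

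GATA factors are zinc finger proteins named for the short DNA sequence they bind, written WGATAR with W for A or T and R for A or G. ELT-3 is the GATA factor known from the differentiated epidermis (hypodermis) of C. elegans, the tissue that secretes the cuticle. A one-strand promoter has a direction, so the position and the strand of a sequence can be given relative to its gene, which is not possible at a divergent promoter. Many worm transcripts receive a spliced leader at their first exon, so an annotated start can lie downstream of the place where transcription begins.

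Windows that reach 50 bases to each side of the summit are shown as examples with WGATAR, with the sequence CTGCGT, or with both. These are not separate kinds of peak. CTGCGT was at 12.9% of start-proximal peaks with WGATAR and at 14.7% of those without. The examples are the strongest peaks of each set, on chromosomes II to V and X, whose window touched no annotated exon. All are written in the direction of the gene, from the WBcel235 (ce11) RefSeq genome, with the summit as the middle base. Capitals mark WGATAR and CTGCGT in either direction. WGATAR covers 4 sequences, which are AGATAA or else AGATAG or else TGATAA or else TGATAG. Read on the other strand, TGATAA appears as TTATCA, and for CTGCGT the letters are then ACGCAG. The first 6 peaks held 2 WGATAR sequences each. They lay at adh-1, an alcohol dehydrogenase gene, mpc-1, for the mitochondrial pyruvate carrier, mcu-1, for the mitochondrial calcium uniporter, dpyd-1, for dihydropyrimidine dehydrogenase, ape-1, the worm relative of the p53 inhibitor iASPP, and mthf-1, for methylenetetrahydrofolate reductase.
adh-1, chrV:11888066-11888166, plus strand: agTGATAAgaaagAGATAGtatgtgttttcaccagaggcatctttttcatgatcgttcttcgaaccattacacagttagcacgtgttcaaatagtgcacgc
mpc-1, chrIII:4413242-4413342, plus strand: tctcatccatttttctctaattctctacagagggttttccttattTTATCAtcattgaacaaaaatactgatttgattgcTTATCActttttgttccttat
mcu-1, chrIV:5939242-5939342, minus strand: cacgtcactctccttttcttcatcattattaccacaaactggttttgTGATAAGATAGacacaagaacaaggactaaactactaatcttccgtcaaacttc
dpyd-1, chrX:5467999-5468099, plus strand: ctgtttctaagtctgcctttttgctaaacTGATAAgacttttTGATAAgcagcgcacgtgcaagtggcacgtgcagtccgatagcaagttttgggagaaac
ape-1, chrV:11683014-11683114, plus strand: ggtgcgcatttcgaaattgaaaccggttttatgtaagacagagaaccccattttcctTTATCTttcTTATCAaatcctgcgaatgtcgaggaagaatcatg
mthf-1, chrII:7776852-7776952, minus strand: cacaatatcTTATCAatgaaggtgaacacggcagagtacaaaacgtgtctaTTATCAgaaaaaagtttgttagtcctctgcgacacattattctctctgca
The next 5 held CTGCGT and no WGATAR. They lay at sec-61.G, for a subunit of the Sec61 channel of the endoplasmic reticulum, sco-1, for a copper chaperone of cytochrome c oxidase, and 3 genes named here by their sequence names only.
sec-61.G, chrV:10897325-10897425, minus strand: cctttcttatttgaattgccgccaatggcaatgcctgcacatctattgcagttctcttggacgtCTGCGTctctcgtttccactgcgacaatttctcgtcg
sco-1, chrII:4299383-4299483, plus strand: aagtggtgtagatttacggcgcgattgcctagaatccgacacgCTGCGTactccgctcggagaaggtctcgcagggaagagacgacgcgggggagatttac
C34C12.8, chrIII:3460213-3460313, plus strand: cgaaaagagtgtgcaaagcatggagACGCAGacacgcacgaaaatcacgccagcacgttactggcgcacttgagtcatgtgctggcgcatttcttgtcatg
W03F8.4, chrIV:5183847-5183947, plus strand: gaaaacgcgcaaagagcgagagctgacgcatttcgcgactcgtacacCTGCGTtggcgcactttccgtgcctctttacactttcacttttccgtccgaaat
T07E3.4, chrIII:6897732-6897832, plus strand: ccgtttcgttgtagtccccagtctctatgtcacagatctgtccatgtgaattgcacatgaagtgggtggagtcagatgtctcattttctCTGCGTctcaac
The last 2 held both sequences. They lay at ntl-11, for a subunit of the CCR4-NOT complex, and asb-2, for a subunit of ATP synthase, where WGATAR and CTGCGT stood side by side.
ntl-11, chrIV:15471573-15471673, minus strand: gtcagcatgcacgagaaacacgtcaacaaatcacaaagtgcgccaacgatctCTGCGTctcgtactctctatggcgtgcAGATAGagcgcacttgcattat
asb-2, chrX:4469430-4469530, plus strand: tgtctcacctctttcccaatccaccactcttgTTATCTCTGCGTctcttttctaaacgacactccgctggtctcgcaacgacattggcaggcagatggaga

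The signals of these peaks are the authors' own values on a scale that is not stated, and they are used here only to describe and rank peaks within a list. The adh-1 peak had a signal of 199.6 in the pool, 91.7 in replicate 1 and 113 in replicate 2, with its summit at −132 bp, where negative positions lie upstream of the start. The sec-61.G peak had 190 in the pool, 106 in replicate 1 and 90.7 in replicate 2, with its summit at −232 bp. Both were high in each replicate. The mpc-1 peak had 157 in the pool but 43.6 in replicate 1 and 107 in replicate 2, and the sco-1 peak had 167 in the pool, 122 in replicate 1 and 41.9 in replicate 2. In raw signal these 2 peaks were higher in opposite replicates. The replicate lists need not share a scale, and medians over start-proximal peaks were 33.9 in replicate 1 and 27.6 in replicate 2. Peaks that stood high in 1 replicate only are taken up by rank below. The dpyd-1 peak lay at +179 bp, in an intron, with 67.2 in replicate 1 and 71.0 in replicate 2.

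Start-proximal positions were dense in peaks, and the density was highest a little upstream of the start. The positions that satisfy the rule cover 10.5 Mb, 10.5% of the genome, and held 112.3 peaks per Mb (exact Poisson interval 106.0 to 118.9). Upstream one-strand positions held 57.0 per Mb, divergent positions 276 per Mb, and positions outside promoters 26.2 per Mb. These densities describe the list, and no test was made of them. Within the start-proximal window, 229 summits lay from −150 to −101 bp, a density of 223 per Mb (195 to 253). The density was 119.1 per Mb in the 50 bp just before the start, 58.0 per Mb in the 50 bp after it, and 17.6 per Mb from +150 to +200 bp. Summits lay upstream of the nearest start in 1034 peaks and at or downstream of it in 146, with a median of −136.5 bp. The relaxed pooled list held 4346 peaks at start-proximal positions, and 27.2% of them passed the authors' reproducibility threshold, against 18.9% at upstream one-strand positions, 43.7% at divergent positions and 11.7% outside promoters.

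**Figure D1:**
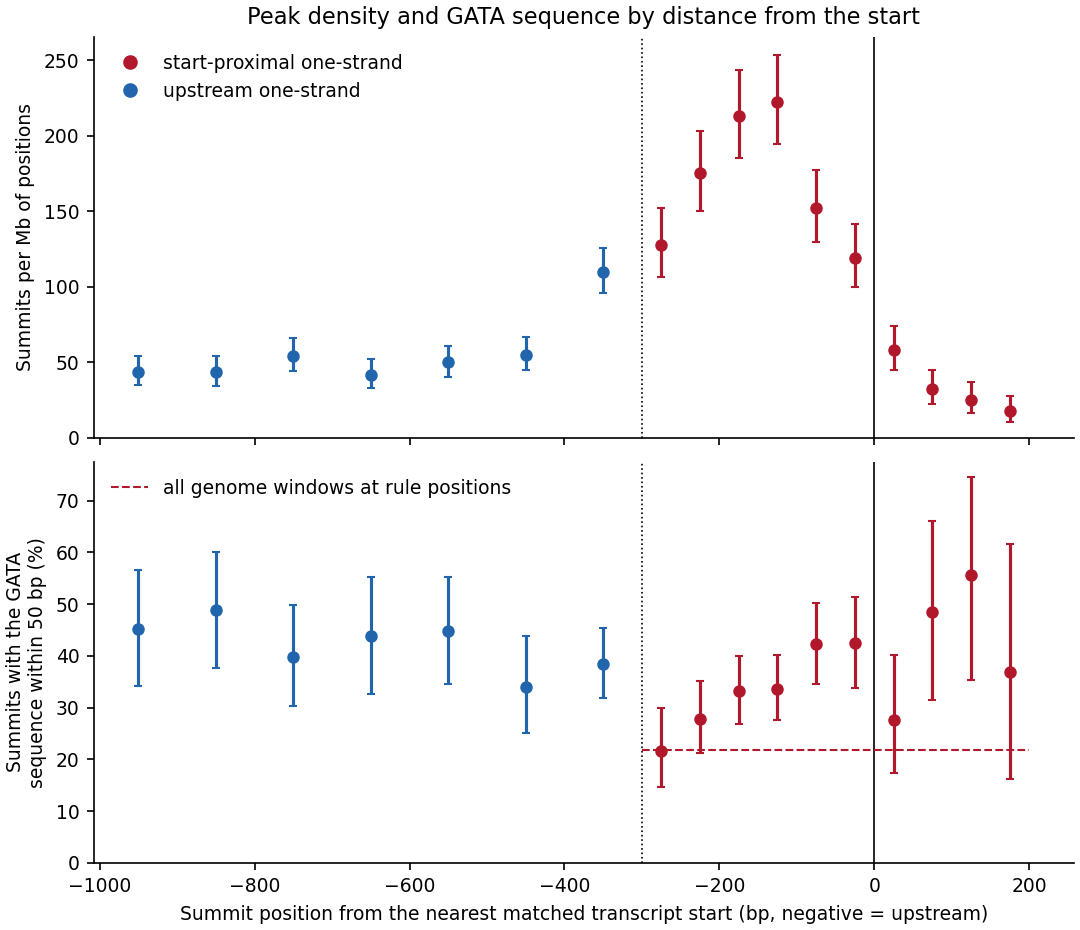
Peak summits by position from the nearest matched transcript start, in bins of 50 bp (start-proximal) and 100 bp (upstream one-strand). Upper panel, summits per Mb of positions of that kind with exact Poisson 95% intervals; lower panel, percent of summits with WGATAR within 50 bp with exact binomial 95% intervals, and a dashed line at the 21.7% of all genome windows that satisfy the rule. The density is highest at −150 to −101 bp, with 223 per Mb, and WGATAR is least frequent among start-proximal summits at −300 to −251 bp, with 21.6%.

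Most of these summits lay between genes (776 peaks), 210 lay in introns, 111 in 5' UTRs, 23 in coding exons, 17 in 3' UTRs and 43 in other exons. Those in introns include internal starts, as at elt-3 itself, where the peak on chromosome X from 13939500 to 13939648 had its summit at −156 bp from an internal transcript start. It had a signal of 127 in the pool, 67.0 in replicate 1 and 63.8 in replicate 2, and 2 WGATAR sequences. The wgIs75 transgene carries elt-3 too, and reads from the transgene and the native locus were not told apart here. A non-coding gene lay within 200 bp of the summit in 120 of the 1180 peaks, mostly of the annotation's ncRNA class (91 peaks), and WGATAR was found in 27.5% of those 120. The density per Mb of rule positions ranged over the chromosomes between 85.7 on IV and 148 on I, and the share with WGATAR between 25.2% on III and 40.9% on X.

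WGATAR lay within 50 bp of the summit at 404 of the 1180 start-proximal peaks, or 34.2% (exact interval 31.5 to 37.02%). The share was 41.2% (314 of 762) at upstream one-strand summits, 14.9% (96 of 645) at divergent summits and 46.3% (899 of 1943) outside promoters. Start-proximal peaks therefore stood between divergent peaks, which held far fewer, and the other classes. Fisher's exact tests, two-sided and with Benjamini-Hochberg adjustment for 3 comparisons, were made of these shares. By these exact tests the differences were −6.97 percentage points against upstream one-strand peaks (adjusted p = 0.00206), +19.4 points against divergent peaks (adjusted p = 1.96e-19) and −12.03 points against peaks outside promoters (adjusted p = 4.98e-11). Peaks are not independent replicates of a condition, and all come from the same 3 libraries, so these tests and intervals cover counting error over peaks only. The difference from upstream one-strand peaks depended on where the line between the classes was drawn and on the motif. By Fisher's exact test it was −0.33 points (p = 0.887) when the start-proximal window ran from 200 bp upstream to 100 bp downstream, −2.57 points (p = 0.256) with GATAA and −2.91 points (p = 0.137) with TGATAA.

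The WGATAR sequence was concentrated at the summits themselves. In windows of the same width 500 bp away, WGATAR was present in 20.2% on the upstream side (exact McNemar test, adjusted p = 6.39e-15) and in 17.4% on the downstream side (adjusted p = 1.74e-20). Among all 105079 genome windows of this width centred on every 100th base that satisfies the rule, 21.7% held WGATAR. These windows were spread over all rule positions and were not matched to the summits in position. The bins of 50 bp covered between 0.98 and 1.12 Mb of rule positions each, but held between 19 and 229 summits. The 404 peaks held 587 WGATAR sequences, with a median distance of 23.5 bp from the summit to the middle of the sequence. Only sequences within 50 bp were counted, so the window sets the range of this distance. It is no measure of concentration toward the summit. A single one was present at 260 peaks, 2 at 109, 3 at 31 and 4 or more at 4, while 776 peaks had none. At −300 to −251 bp 21.6% of 125 summits had WGATAR, a share close to that of all genome windows, and at −50 to −1 bp 42.4% of 132 summits did (33.9 to 51.3%).

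The 300 bp limit of the rule fell on a slope of the density, with 110 peaks per Mb from −400 to −301 bp and 128 from −300 to −251 bp. For WGATAR it fell at a step, beside the start-proximal bin with the lowest share. Just inside it, from −300 to −251 bp, the 125 peaks had a median signal of 63.8 and a WGATAR share of 21.6%. Just outside it, from −350 to −301 bp, 108 upstream one-strand peaks had a median signal of 67.7 and a WGATAR share of 36.1%. The members nearest to the line were the peaks of rpl-23, a large ribosomal subunit gene, and atf-6, a gene of the unfolded protein response, both at −300 bp with signals of 169 and 59.1, and of cox-5A, a cytochrome c oxidase subunit gene, at −299 bp with 211. The nearest peaks beyond it were those of bcc-1 and nhr-25, a nuclear hormone receptor gene of the epidermis, both at −301 bp with 152 and 54.2, and of ZK470.2 at −302 bp with 102.

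Besides WGATAR, start-proximal summits held other short sequences more often than their surroundings did. CTGCGT was found at 14.1% of them (12.1 to 16.2%), in 1.95% of the windows 500 bp upstream, in 1.86% of those 500 bp downstream and in 2.34% of all genome windows that satisfy the rule. GAGAGA was found at 23.7%, in 4.24% and 3.98% of the windows 500 bp upstream and downstream, and in 6.73% of genome windows. Summits of the other classes held both sequences too. GAGAGA was at 27.03% of upstream one-strand, 16.4% of divergent and 26.97% of outside-promoter summits. CTGCGT was at 13.3%, 15.2% and 9.21% in the same order. Sequences common in worm non-coding DNA were less frequent at the start-proximal summits than in genome windows. TTTTTT was present at 27.97% of summits and in 39.6% of genome windows, and TTTCAG, which matches the worm 3' splice site consensus, at 4.07% and in 20.4%. The summit windows averaged 43.2% GC and the genome windows 36.01%, and the part of base composition in these shares was not tested. Genome windows were not matched to the summits in position either. CTGCGT and WGATAR occurred together in 52 peaks, CTGCGT without WGATAR in 114, and 536 peaks had neither of these nor a GAGAGA.

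**Figure D2:**
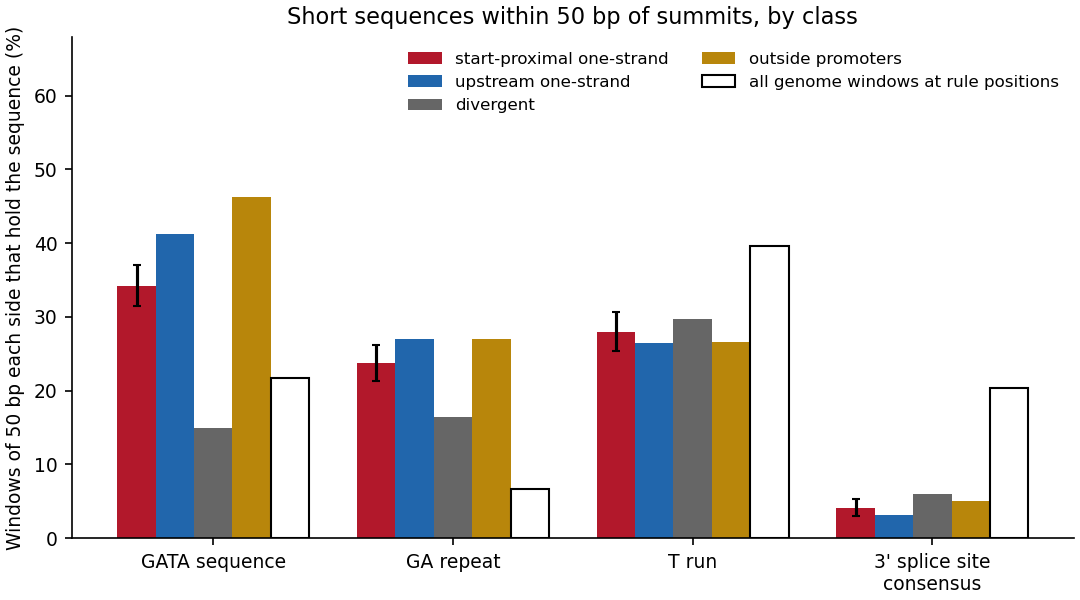
Percent of windows (50 bp to each side of a position) that hold a short sequence on either strand, for start-proximal one-strand, upstream one-strand, divergent and outside-promoter summits, and for all genome windows that satisfy the rule; error bars are exact 95% intervals of the start-proximal share. The GATA sequence is WGATAR and the GA repeat, T run and splice site consensus are spelled in the text; WGATAR was at 34.2% of start-proximal summits, between 14.9% at divergent summits and 46.3% outside promoters.

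No 6-base sequence was called different in frequency between start-proximal and upstream one-strand summits. Of 2080 sequences tested, with reverse complements joined, 0 (0%) were called more frequent and 0 (0%) less frequent by Fisher's exact test at an adjusted p of 0.05, while 84 and 54 had an unadjusted p below 0.05. Among the more frequent, the lowest p by Fisher's exact test belonged to GCGGAC, at 4.32% of start-proximal and 1.18% of upstream one-strand summits (adjusted p = 0.0700). Against peaks outside promoters, 130 sequences (6.25% of those tested) were more frequent and 54 (2.6%) less frequent at start-proximal summits. By the same exact test, ACGCGC was at 11.8% of start-proximal summits and 3.04% of summits outside promoters (adjusted p = 3.6e-18), and AACGCG at 9.58% and 2.42% (adjusted p = 7.25e-15). Among the less frequent by the exact test were ATCACA, at 7.46% and 13.8% (adjusted p = 2.98e-06), and TGATAA, 1 of the 4 sequences that WGATAR covers, at 19.7% and 28.1% (adjusted p = 9.58e-06). CTGCGT was also more frequent, at 14.1% against 9.21% (exact test, adjusted p = 0.00128).

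GC content within 50 bp of the summit averaged 43.2% at start-proximal peaks, 42.8% at upstream one-strand peaks, 45.1% at divergent peaks and 41.4% outside promoters. By two-sided tests with 100000 permutations, adjusted over 3 comparisons, the difference was +0.35 points against upstream one-strand peaks (adjusted p = 0.334), −1.91 points against divergent peaks and +1.80 points against peaks outside promoters (adjusted p = 1.5e-05 for each, from the smallest p that the permutations can give). The difference from upstream one-strand peaks depended on the peak set and the width of the window. By permutation it was +1.57 points in the stronger 50% of peaks (adjusted p = 0.00176), +1.32 points within 25 bp of the summit (adjusted p = 0.00388), +1.02 points with a start-proximal window of 500 bp upstream (adjusted p = 0.0153) and +0.83 points without summits near non-coding genes (adjusted p = 0.0279). Within 100 bp of the summit the permutation tests gave differences of −0.66 (adjusted p = 0.0422), +0.87 (adjusted p = 0.0111) and −0.28 points (adjusted p = 0.226) for the same 3 comparisons.

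Since these promoters have a direction, the strand of each WGATAR could be read relative to the gene. Of the 365 start-proximal windows whose WGATAR sequences all faced one way, 128 read WGATAR along the gene strand and 237 read it on the opposite strand, so that 35.1% were in the sense direction (30.2 to 40.2%, exact binomial test against equal numbers, p = 1.24e-08). Genome windows that satisfy the rule did not have equal numbers either. The sense share was 40.1% in all such genome windows, and no test was made against that share. These windows were spread over all rule positions and were not matched to the summits in position. In the windows printed above, adh-1, mcu-1 and dpyd-1 have both sequences in the sense direction, and mpc-1, ape-1 and mthf-1 have both in the antisense direction. Counted by sequence, 212 were sense and 375 antisense (exact binomial p = 1.71e-11, with several sequences to a window). The sense share was 34.8% at −300 to −201 bp, 30.9% at −200 to −101 bp, 37.04% at −100 to −1 bp and 42.3% from 0 to +200 bp.

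The direction was also read away from the start-proximal summits, where the sense share was not tested against equal numbers. It was 37.4% at upstream one-strand summits (96 of 257, Fisher's exact test, adjusted p = 0.611 over 3 comparisons), 40.6% in the windows 500 bp upstream of start-proximal summits (89 of 219, adjusted p = 0.278) and 45.2% in those 500 bp downstream (89 of 197, adjusted p = 0.0693). In all genome windows that satisfy the rule, 40.1% of the 21364 windows with WGATAR in one direction had it in the sense direction. The differences from the flanking windows depended on the peak set and the window. With peaks of replicate 2 alone, the sense share was 32.9% at start-proximal summits, against 48.3% in the upstream flank (Fisher's exact test, adjusted p = 0.000412) and 49.8% in the downstream flank (adjusted p = 0.000269). With windows of 100 bp to each side it was 32.2% at start-proximal summits, against 42.3% in the upstream flank (exact test, adjusted p = 0.00343) and 45.4% in the downstream flank (adjusted p = 0.000384). The difference from the downstream flank also passed without summits near non-coding genes and with a start-proximal window of 500 bp upstream. These comparisons were chosen after the data were seen. Along the gene strand the start-proximal windows averaged 31.03% T and 25.8% A, and 23.95% C and 19.2% G (means over 1180 windows, SD between 6.36 and 7.99 points). Other sequences leaned too. GAGAGA read 142 times in the sense and 363 times in the antisense direction, CTGCGT 114 and 61 times, and TATAAA 66 and 25 times. The part of base composition in the direction of WGATAR was not tested.

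**Figure D3:**
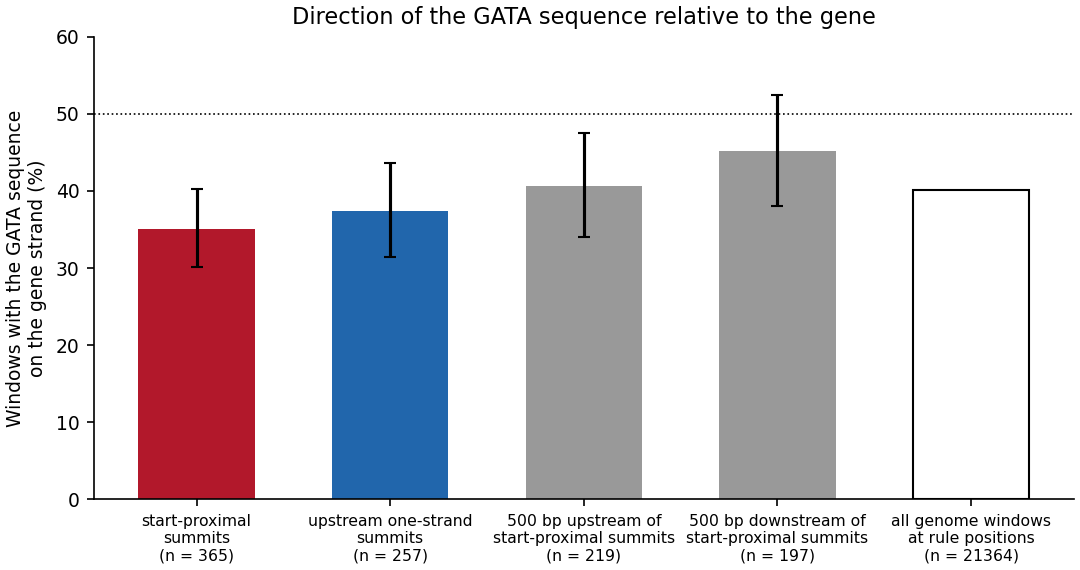
Percent of windows with WGATAR (here GATA sequence) in the sense direction, among windows of 50 bp to each side whose WGATAR sequences all face one way, with exact binomial 95% intervals; the dotted line marks equal numbers, and the genome bar has no interval. Start-proximal summits stand at 35.1%, upstream one-strand summits at 37.4%, the flanking windows at 40.6 and 45.2%, and all genome windows that satisfy the rule at 40.1%.

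Start-proximal signals ran between 35.2 and 341, with a median of 58.1, against medians of 60.8 at upstream one-strand, 65.7 at divergent and 59.3 at outside-promoter peaks. The lowest signals of these other classes were 35.4, 35.3 and 35.2, so signals are compared only above a common floor. Of the 3 differences in signal, that from divergent peaks passed the permutation test. The mean log10 signal of start-proximal minus divergent peaks was −0.050, a ratio of 0.891 (permutation test, adjusted p = 3e-05), while the differences of −0.016 from upstream one-strand peaks (adjusted p = 0.0910) and −0.011 from peaks outside promoters (adjusted p = 0.104) did not. With the strongest peaks of replicate 2 alone, the difference from divergent peaks was −0.016 (permutation test, adjusted p = 0.0967), and those from upstream one-strand peaks (−0.020, adjusted p = 0.0387) and from peaks outside promoters (−0.021, adjusted p = 0.0160) passed. In permutation tests with a start-proximal window of 200 bp upstream and 100 bp downstream, these last differences passed too, at −0.023 (adjusted p = 0.0104) and −0.018 (adjusted p = 0.0206), and that from peaks outside promoters also did so in the stronger 50% of peaks (adjusted p = 0.0432) and without summits near non-coding genes (adjusted p = 0.0322). Among the 100 strongest peaks of the list 17 were start-proximal. The WGATAR share showed no order with the signal. Over 10 equal bins of rising signal, the weakest had 35.6%, the lowest share was 27.1% and the strongest had 34.7%. Peaks at or downstream of the start were weaker than those upstream of it, with a median of 52.0 against 59.3 and a difference of −0.042 in mean log10 signal (permutation test, p = 0.00835), and had WGATAR at 39.0% against 33.6% (Fisher's exact test, p = 0.193). By the same exact test the WGATAR difference passed with 1 start per gene, at 44.6% against 31.5% (p = 0.00530), and with the strongest peaks of replicate 1 alone, at 37.97% against 27.8% (p = 0.0110). By permutation, the signal difference was −0.013 (p = 0.517) among the stronger 50% of the list and −0.032 (p = 0.0805) with a start-proximal window of 200 bp upstream and 100 bp downstream.

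The 15 strongest start-proximal peaks lay at genes of several kinds, and 4 of them are on the lists for protein synthesis and energy described below, namely rpl-3, cox-5A, eif-3.C, a translation initiation factor gene, and mrpl-55, a mitochondrial ribosomal protein gene. The highest was that of rpl-3, a large ribosomal subunit gene, on chromosome III from 3867479 to 3867693, with 341 in the pool, 197 in replicate 1 and 148.8 in replicate 2. It was followed by cdc-48.1, for an AAA ATPase of protein quality control, with 311 in the pool, 143 in replicate 1 and 174 in replicate 2, and by puf-9, for an RNA-binding protein of the Pumilio family, with 296 in the pool, 175 in replicate 1 and 120 in replicate 2. None of these 3 had WGATAR within 50 bp. The remaining 12 of the 15 strongest lay at dhp-1, T28F4.4, dld-1, bag-1, cox-5A, imb-3, adh-1, eif-3.C, sec-61.G, mrpl-55, Y71F9B.9 and nipi-3, the last a gene for a Tribbles-type pseudokinase known from epidermal immunity. WGATAR was found at 4 of the 15, those of dhp-1, T28F4.4, adh-1 and Y71F9B.9, beside 34.2% of all start-proximal peaks and 34.7% of those in the highest of 10 signal bins.

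The dhp-1 peak is the strongest with WGATAR. It lay on chromosome I from 7243804 to 7244024, with its summit in an intron at +40 bp, 2 WGATAR sequences, and signals of 287 in the pool, 113 in replicate 1 and 191 in replicate 2. The gene encodes dihydropyrimidinase, which acts after dihydropyrimidine dehydrogenase, the product of dpyd-1, in pyrimidine breakdown. A peak with 3 WGATAR sequences lay at −60 bp of cdd-1, for a cytidine deaminase, with 122.99 in the pool, 51.7 in replicate 1 and 73.4 in replicate 2. Of the 35 peaks with 3 or more WGATAR sequences, the 8 strongest lay at F26A3.4, R04B5.5, add-2, F43H9.4, cdd-1, jun-1, cpz-1 and mab-21, with signals between 105 and 185. The F26A3.4 peak had 36.9 in replicate 1 and 140 in replicate 2. Peaks at jun-1, a gene for an AP-1 transcription factor subunit, had 39.3 in replicate 1 and 69.1 in replicate 2, and at cpz-1, for a cathepsin Z protease needed in molting, 44.6 and 63.5. Of these 8 peaks, mab-21 was the one that ranked higher in replicate 1, at 570 with a signal of 65.1, than in replicate 2, at 1602 with 35.6.

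A start-proximal peak marked 1163 of the 19973 protein-coding genes, or 5.82%. Of the peaks, 1164 reached the start of 1 gene and 16 the starts of 2 or more, and 32 genes had 2 or more start-proximal peaks. The 6 epidermal gene lists joined had a start-proximal peak at 44 of 374 genes (11.8%), and 26 of their 44 peaks (59.1%) had WGATAR. Lists for protein synthesis, folding, turnover and energy had one at 48 of 412 genes (11.7%), and 4 of their 48 peaks (8.33%) had WGATAR. Over all start-proximal peaks the WGATAR share was 34.2%, so the epidermal peaks had it more often and the others less often than all members did. The median signal was 53.4 in the epidermal and 85.5 in the other set, beside 58.1 over all, and the mean GC content 41.99% and 48.8%, beside 43.2%. These lists were chosen with results of these data known, so the counts describe them and no test was made.

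Among epidermal genes, the cuticle collagens had a start-proximal peak at 17 of 175 genes (9.71%), with WGATAR at 11 of 16 peaks. The strongest was that of col-147, with 114.6 in the pool, 37.5 in replicate 1 and 81.4 in replicate 2. It was followed by the peak shared by the neighbours col-159 and col-160, with 3 WGATAR sequences, 83.7 in the pool, 26.2 in replicate 1 and 60.04 in replicate 2. Both ranked higher in the replicate 2 list (198 and 514) than in the replicate 1 list (2020 and 3440). The col-149 peak had 58.3 in replicate 1 and none in replicate 2. Peptide, immune and osmotic response genes had one at 11 of 40 (27.5%), the highest share of the 24 lists, with WGATAR at 6 of 11 peaks. The peak of sta-2, a STAT-type factor gene of epidermal immunity, had 124 in the pool, 77.0 in replicate 1 and 50.2 in replicate 2, without WGATAR. That of nlp-24 had 91.5, 31.3 and 57.2, and that of nlp-29, an antimicrobial peptide gene, 65.3, 39.7 and 25.3 in the same order.

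Epidermal transcription factor genes had a start-proximal peak at 4 of 20 (20%), with WGATAR at 4 of 5 peaks. These were elt-3, tlp-1, egl-27 and nhr-23, and the tlp-1 and egl-27 peaks had 70.1 and 62.4 in the pool. Junction and attachment genes had one at 3 of 20 genes (15%), namely let-805, mup-4 and ifb-1, which act in the attachment of epidermis to muscle, with 74.4, 73.1 and 42.8. Of the molting and apical matrix list, 4 of 34 genes (11.8%) had one, with WGATAR at 1 of 4 peaks, and the strongest was pdi-6, for a protein disulfide isomerase, with 109 in the pool, 89.5 in replicate 1 and 13.99 in replicate 2. Hedgehog-related and patched-related genes had one at 5 of 86 (5.81%), close to the share of all genes, with WGATAR at 3 of 5 peaks and the highest signals at ptr-6, ptr-13 and wrt-3. Nuclear hormone receptor genes, a family expanded in worms, had one at 33 of 269 (12.3%), with WGATAR at 17 of 35 peaks. Their strongest peak, at nhr-57, had 185 in the pool, 66.0 in replicate 1 and 118.1 in replicate 2 and no WGATAR.

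Ribosomal protein genes had a start-proximal peak at 16 of 82 (19.5%), against 46 with a peak at a divergent promoter. WGATAR was at 1 of the 16 peaks, at rpl-24.2, and the median signal was 113. Of the 16 summits, 13 lay from −300 to −201 bp, with a median of −264.5 bp, while 25.3% of all start-proximal summits lay in that range. The 16 collagen peaks, for comparison, had a median signal of 52.6 and a median position of −208 bp. The rule stops at −300 bp, so the positions of both sets are cut off there. Upstream one-strand peaks lay at 9 ribosomal protein genes and at 5 collagen genes. Other lists of the protein synthesis and energy set reached between 6.25 and 15.2% of their genes, with 8 of 65 for the respiratory chain, 5 of 33 for the proteasome, 5 of 45 for translation factors, 5 of 65 for chaperones, 5 of 70 for mitochondrial ribosomal proteins, 2 of 32 for aminoacyl-tRNA synthetases and 2 of 20 for the vacuolar ATPase. In the relaxed list of each replicate their peaks, ribosomal ones included, had medians of 51.5 in replicate 1 and 32.05 in replicate 2, against 29.9 and 23.04 for the epidermal set. The replicate 2 medians leave out peaks without a partner there, such as those of nduf-11 and vha-9, and of col-149 and ifb-1 in the epidermal set.

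**Figure D4:**
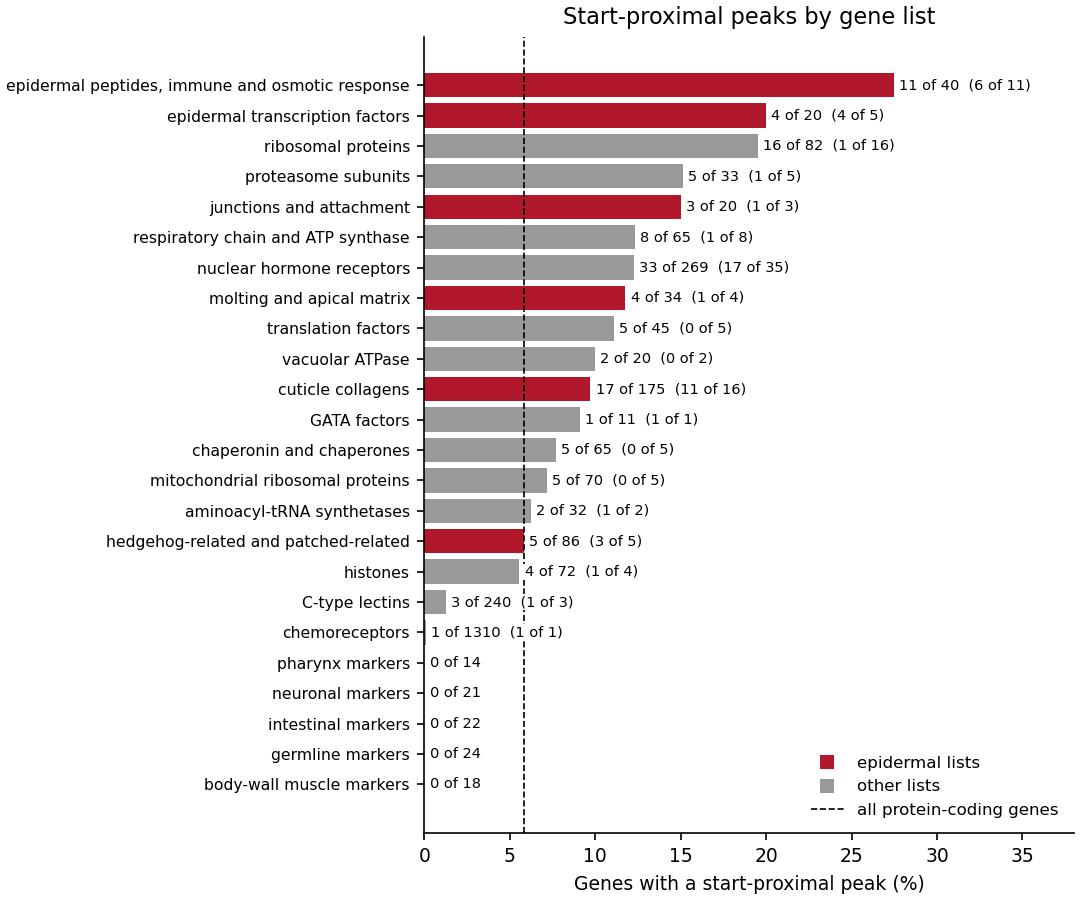
Percent of the genes of each list with a start-proximal peak, epidermal lists in red and others in grey, with the count of genes beside each bar and, in brackets, how many of the list's start-proximal peaks have WGATAR within 50 bp. The dashed line is the 5.82% of all protein-coding genes; epidermal peptide, immune and osmotic genes stand highest with 11 of 40, and ribosomal protein genes have 16 of 82 with WGATAR at 1 peak.

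Few or no start-proximal peaks were found at the markers of other tissues. Lists of intestinal (22 genes), body-wall muscle (18), pharynx (14), neuronal (21) and germline (24) markers had none, in all 0 of 99 genes, beside 5.82% of all protein-coding genes. The lists are short, and no test was made. Peaks of the other promoter classes lay at 2 neuronal and 3 germline markers, and at no intestinal, muscle or pharynx marker. Chemoreceptor genes had 1 of 1310, at srh-2, and C-type lectin genes 3 of 240 (1.25%). Of 11 GATA factor genes, elt-3 was the one with a start-proximal peak. Histone genes had 4 of 72 (5.56%), close to the share of all genes, with the strongest at his-37.

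Both replicates held nearly all of these peaks, but ranked them differently. A peak of replicate 1 overlapped 1176 of the 1180 and a peak of replicate 2 overlapped 1133, by 1 bp or more, and 1129 (95.7%) had both, against 95.7% of upstream one-strand, 96.6% of divergent and 96.1% of outside-promoter peaks (Fisher's exact tests, adjusted p of 1, 0.861 and 0.861). The relaxed lists hold 30000 and 27330 peaks, so an overlap is a mild condition. The thresholded list was also chosen for reproducibility between these same replicates. How much of the high overlap in every class comes from that choice was not tested. Across the 1129 peaks the log10 signals of the replicates had a Pearson correlation of 0.22 and a Spearman correlation of 0.23, given as a description of sites that share their libraries. These correlations hold for peaks that passed the threshold, and that selection can itself change them. The replicate summits were a median of 36 bp apart. Strong peaks without a partner in replicate 2 were those of nduf-11, vps-4, col-149 and mnk-1, with replicate 1 signals of 88.9, 73.3, 58.3 and 67.5. Peaks without a partner in replicate 1 were those of twk-34, ttr-47, F46C8.8 and ZK669.3, with replicate 2 signals of 57.9, 29.5, 40.0 and 31.3.

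Peaks that stood high in 1 replicate only differed in sequence. Among the 4530 strongest peaks of each replicate list, 712 start-proximal peaks had a partner in both, 178 in replicate 2 only, 269 in replicate 1 only and 21 in neither. WGATAR was at 51.7% (92 of 178) of those high in replicate 2 only and at 25.3% (68 of 269) of those high in replicate 1 only, a difference of 26.4 points (Fisher's exact test, p = 2.24e-08, a comparison chosen after the data were seen). Those high in both had 33.1%. The mean GC content was 36.7% for replicate 2 only and 46.3% for replicate 1 only, and CTGCGT was at 6.74% and 14.1%. The part of base composition in the WGATAR difference was not tested. Taking the 4530 strongest peaks of 1 replicate as the list, the WGATAR share of start-proximal peaks was 38.2% in replicate 2 (1113 peaks) and 29.2% in replicate 1 (1193 peaks), and in each it stayed below that of upstream one-strand peaks and above that of divergent peaks.

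**Figure D5:**
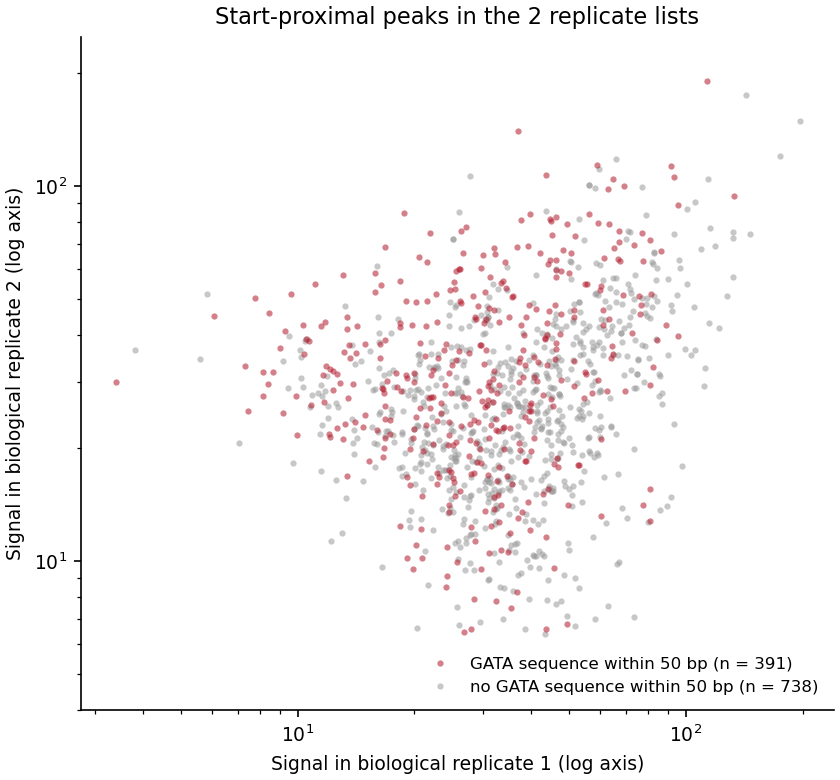
Signal of each of the 1129 start-proximal peaks found in both relaxed lists, replicate 1 across and replicate 2 up, both on log axes, with peaks that have WGATAR (here GATA sequence) within 50 bp in red. The signals are loosely related, with a Pearson correlation of 0.22 on the log10 scale, and red points are common at upper left, where replicate 2 is high and replicate 1 low.

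Several genes had more than 1 start-proximal peak, some at different annotated starts and some at the same start. At smk-1, for a regulator of stress response and lifespan that acts with DAF-16, one summit lay at −219 bp with 92.1 in the pool and the other at −59 bp of an internal start with 86.9, each with 1 WGATAR. At egl-30, a G protein alpha subunit gene, the peaks had 122.6 and 63.4, and at nurf-1, a chromatin remodelling factor gene, 132 and 38.8, without WGATAR. At wdr-23, a negative regulator of SKN-1, and at F55H12.7 there were 3 each. At both genes 2 of the 3 peaks lay at a single start and overlapped each other and the same replicate peaks, with 68.1 in replicate 1 and 40.6 in replicate 2 at wdr-23, so those signals are not separate measurements.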

How the data were processed

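Peaks came from ELT-3 chromatin immunoprecipitation sequencing (ChIP-seq) of 3 libraries in 1 group. Per the deposited file descriptions, a relaxed list was made for each biological replicate and for their pool from the alignments and a control, and the pooled peaks were then thresholded on reproducibility. The unit used is signal, the value that the authors deposited for each peak, on a scale that is not stated. Aligner, peak caller and settings: not given in the sources used here. Lists on the ce10 build, reads and control libraries were not used here. Columns of per-sample values that could not be mapped numbered 0.

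From the thresholded ce11 list, summits (start plus summit offset) were classed against protein-coding transcript starts of Ensembl release 115 on WBcel235, and sequences were read from the RefSeq genome of that assembly. Coordinates are given from 1. WGATAR, 10 fixed motifs in all, and 2080 sequences of 6 bases were sought on both strands, wholly within 50 bp of the summit, and counted once per window for shares. TGATAA is 1 of the 4 sequences that WGATAR covers. Classes were compared with two-sided Fisher's exact tests, tests with 100000 permutations and exact McNemar tests, adjusted by the Benjamini-Hochberg method. Exact intervals are at 95%. Overlap with replicate lists required 1 bp.

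Members and the 24 gene lists were chosen with earlier results of these data known, and the chemoreceptor list was corrected after the files were seen. Named peaks are the 15 strongest, the strongest of each gene list (3 for epidermal lists, 2 for others), the strongest with 3 or more WGATAR, those absent from 1 replicate, those nearest to the 300 bp limit, genes with several peaks, and the strongest downstream of the start. Other genes of the lists, and dpyd-1 beside dhp-1, were named after their values were seen. Alternatives covered stricter and single-replicate peak sets, other windows, motifs and start sets, 1 peak per gene, the overlap rule and the median. The statistics were tested on simulated data. Python 3.11.15, numpy 2.4.6, scipy 1.17.1 and matplotlib 3.10.9 were used.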

Additional observations from a re-analysis of the deposited data

How the results depend on the processing

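The 27 summary results were recomputed under 16 alternatives, which gave 324 values, and 265 of these kept their direction and their side of the threshold or stayed within their margin. The WGATAR excess over divergent peaks and over both flanks, its deficit against peaks outside promoters and the antisense lean against equal numbers held under all that were run. All genome windows that satisfy the rule leaned the same way, with 40.1% sense, and the lean was not tested against that share. Calls gained with the direction kept were 18. They were in signal against upstream one-strand and outside-promoter peaks and in GC content against upstream one-strand peaks. The others were in direction against the flanks and in WGATAR of downstream summits. Calls lost with the direction kept were 6. Another 17 values changed direction, and 18 shares or counts moved beyond their margin. Among those 17 were GC differences within 100 bp of the summit. There the difference from upstream one-strand peaks passed, and that from outside-promoter peaks no longer did. No paired analysis was possible because the study has 1 group. With a start-proximal window of 200 bp upstream and 100 bp downstream, start-proximal peaks were 18.5% of the list, the WGATAR difference from upstream one-strand peaks was −0.33 points, that of downstream from upstream summits −1.38 points and their signal difference −0.032; the signal differences from upstream one-strand and outside-promoter peaks were −0.023 and −0.018, the GC difference from upstream one-strand peaks −0.56 points, and 85 and 22 sequences of 6 bases were more and less frequent than outside promoters. With 500 bp upstream, the share was 33.1%, the signal difference from upstream one-strand peaks 0.000936, the GC difference 1.02 points, the direction difference from the downstream flank −10.2 points, and 2 sequences of 6 bases were more frequent than at upstream one-strand peaks. GATAA and TGATAA in place of WGATAR gave differences of −2.57 and −2.91 points from upstream one-strand peaks, and GATAA a direction difference of 0.76 points. Within 100 bp of summits the GC differences from upstream one-strand, divergent and outside-promoter peaks were −0.66, 0.87 and −0.28 points, the direction differences from the upstream and downstream flanks −10.2 and −13.2 points, and 1 sequence was more frequent than at upstream one-strand peaks and 107 less frequent than outside promoters; within 25 bp the GC difference from upstream one-strand peaks was 1.32 points, with 2 and 25 such sequences. The stronger 50% of peaks gave a share of 24.8%, 561 genes, a GC difference from upstream one-strand peaks of 1.57 points, signal differences of −0.017 from outside-promoter peaks and −0.013 for downstream summits, 32 less frequent sequences, and differences in presence in both replicates of −0.99 points from upstream one-strand and 0.13 points from divergent peaks. Without summits near non-coding genes the share was 27.6%, the GC difference from upstream one-strand peaks 0.83 points, the signal difference from outside-promoter peaks −0.017, the direction difference from the downstream flank −11.7 points and the difference in presence from upstream one-strand peaks −0.88 points. With 1 start per gene the share was 22.1%, downstream summits had 13.1 points more WGATAR, the direction difference from upstream one-strand peaks was 1.21 points, and presence differed by −0.042 and 0.11 points from upstream one-strand and outside-promoter peaks; with 1 peak per gene presence differed by −0.071 points from upstream one-strand peaks and 1 sequence was more frequent; with summits inside replicate peaks it differed by 0.50 points from outside-promoter peaks. Leaving out either replicate gave shares between 24.6 and 26.3%, sequences more frequent than outside promoters between 69 and 123 and less frequent between 24 and 61, signal differences between −0.020 and −0.0096 from upstream one-strand, −0.062 and −0.016 from divergent and −0.021 and 0.0073 from outside-promoter peaks, a GC difference between −0.0015 and 0.5 from upstream one-strand peaks, a WGATAR difference of downstream summits between 4.86 and 10.1 points, and direction differences between −15.4 and −8.62 points from the upstream and −16.9 and −9.76 from the downstream flank. Presence in both replicates was not recomputed where a replicate was left out or where presence was required. The causes were not tested. Depth is unknown, and no control reads were analysed here.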
